A study of Mus musculus with 2 samples.

Results

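The 10 lung lineage transcription factors, Nkx2-1, Cebpa, Etv5, Foxa1, Foxa2, Gata6, Sox2, Foxj1, Trp63 and Hopx, were followed through the epithelial cell classes of mouse lung. They were chosen by name as known regulators of alveolar or airway epithelium, and all 10 were present among the 28692 genes measured in each library. The data were 10x single-cell RNA libraries of 2 wild-type C57BL/6 mice, 1 library per group. The tumor-bearing mouse had received 1000000 luciferase-labelled LLC cells, a transplantable mouse lung carcinoma line, by subcutaneous injection on the dorsum 14 days before lung collection. The control mouse was not treated. Cells negative for CD45 and positive for SftpC, the surfactant protein of alveolar type 2 (AT2) cells, had been sorted. Airway and alveolar type 1 (AT1) cells were present in these libraries as well, and how they came through the sort was not tested.

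Nkx2-1, Foxa1, Foxa2 and Gata6 act early and broadly in lung endoderm, where Nkx2-1 marks the lung field. Cebpa and Etv5 are known for maintaining AT2 identity and surfactant synthesis, with Etv5 acting downstream of FGF and RAS signalling. Sox2 marks the conducting airway, Foxj1 drives the building of motile cilia, and Trp63 encodes p63, the regulator of airway basal cells. Hopx is an atypical homeodomain protein that does not bind DNA and is used as a mark of AT1 cells, the flat cells of gas exchange.

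Sequencing gave 84448360 UMIs in the tumor-bearing sample and 91498124 in the control, where a UMI (unique molecular identifier) stands for 1 captured transcript. Among barcodes with at least 2000 UMIs, 8193 and 11007 in number, AT2 cells were those with at least 15% of their UMIs from Sftpc, 6729 in the first library and 10008 in the second. Club cells, the secretory cells of the airway (at least 20% Scgb1a1, under 10% Sftpc), numbered 289 and 64. Marker panels that hold none of the 10 factors gave 221 and 278 ciliated, 169 and 301 AT1 and 22 and 42 basal cells. Pairs of values are given in this order, tumor-bearing and then control. Levels are CPM, the UMIs of a gene summed over a class and scaled to 1000000 UMIs of that class, with exact 95% Poisson intervals, and all intervals cover counting error only. Each group had 1 library, which allows no test over mice, and a difference between the libraries cannot be told apart from one between the 2 mice. The libraries shared 128 barcodes, 94 of them among AT2 cells.

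The AT2 and club names were set against markers that did not define them. All 9 other AT2 markers had UMIs in AT2 cells and summed to 95806 and 94357 CPM, against 5489 and 9215 CPM in AT1 cells. The 6 other club markers summed to 34983 and 34852 CPM in club cells. They also reached 23068 and 30958 CPM in basal and 19462 and 19301 CPM in ciliated cells. In AT2 cells they were at 9649 and 10309 CPM and in AT1 cells at 1047 and 1295 CPM. No markers were set aside to check the ciliated, AT1 and basal names. Krt5 and Krt14 belong to the panel that defined basal cells, so their presence is no check on that name. Krt5 was seen in 21 of 22 and in 32 of 42 basal cells, but Krt14 had 0 and 7 UMIs. The fibroblast gene Dcn was seen in 21 of 22 and 40 of 42 basal cells while Lum was at 0, so "basal" here stands for cells chosen by the keratin panel. Barcodes with endothelial markers, 310 and 32 in number with median depths of 2970.5 and 2421 UMIs, served as a class that should lack most of these factors.

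Promoter sequence (RefSeq, GRCm38.p6, 250 bases before to 50 after the start site) was given for 7 of the 10 factors. It is shown for Cebpa and Etv5, the pair of factors higher in AT2 cells than in both ciliated and AT1 cells, and for Foxa1 and Foxa2, a pair of forkhead paralogs whose levels parted in basal cells. The windows are chr7:35119043-35119342 (plus strand) for Cebpa, chr16:22439521-22439820 (minus strand) for Etv5, chr12:57546062-57546361 (minus strand) for Foxa1 and chr2:148046920-148047219 (minus strand) for the first of the 3 Foxa2 promoters, each read 5′ to 3′ along the gene. Capitals mark the forkhead word TGTTTAC and the CCAAT box, each on either strand.
Cebpa: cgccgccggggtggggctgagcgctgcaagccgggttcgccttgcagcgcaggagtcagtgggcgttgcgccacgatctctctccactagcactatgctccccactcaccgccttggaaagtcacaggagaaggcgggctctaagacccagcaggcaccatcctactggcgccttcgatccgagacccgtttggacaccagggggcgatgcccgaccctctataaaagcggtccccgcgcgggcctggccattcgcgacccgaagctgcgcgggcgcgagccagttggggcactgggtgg
Etv5: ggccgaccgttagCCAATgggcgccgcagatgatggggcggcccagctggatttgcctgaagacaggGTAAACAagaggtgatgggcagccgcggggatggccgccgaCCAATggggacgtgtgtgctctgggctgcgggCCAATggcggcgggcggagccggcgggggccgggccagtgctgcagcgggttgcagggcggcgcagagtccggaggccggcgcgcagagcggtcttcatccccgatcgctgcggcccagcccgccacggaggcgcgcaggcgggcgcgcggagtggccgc
Foxa1: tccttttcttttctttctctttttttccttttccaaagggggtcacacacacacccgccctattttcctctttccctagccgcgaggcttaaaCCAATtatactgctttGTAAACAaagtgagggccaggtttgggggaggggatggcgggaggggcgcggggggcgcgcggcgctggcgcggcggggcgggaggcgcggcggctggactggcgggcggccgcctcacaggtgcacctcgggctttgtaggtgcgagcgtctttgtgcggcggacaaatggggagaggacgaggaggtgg
Foxa2: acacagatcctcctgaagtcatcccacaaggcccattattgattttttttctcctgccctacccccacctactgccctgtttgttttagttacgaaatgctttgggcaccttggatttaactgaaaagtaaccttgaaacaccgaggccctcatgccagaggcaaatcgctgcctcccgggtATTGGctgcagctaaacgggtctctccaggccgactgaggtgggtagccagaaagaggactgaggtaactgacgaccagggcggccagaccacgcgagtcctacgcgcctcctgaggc

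Etv5 has a second promoter in the table, with no forkhead word and 1 CCAAT box. The forkhead word was present in the Etv5 window shown, 183 bases before the start site, and in the Foxa1 window, 141 bases before it, on the reverse strand in both. It occurred in 3.65% of 32851 promoters of the same length. That Etv5 window also held 3 CCAAT boxes, at 237, 142 and 110 bases before the start site, Foxa1 held 1 and the Foxa2 window held 1, against 37.4% of all promoters with any. Neither word was in the Cebpa window. A C/EBP word (TTGCNNAA, in 10.8% of promoters) and an NK2 word (CAAGTG, in 13.6%) were searched on both strands as well and were not in these 4 windows, though the C/EBP word was in that of Sox2 and the NK2 word in the second window of Hopx. These are matches of letters, not measured binding.

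Nkx2-1 (chr12:56531958-56536908, mm10), the homeodomain factor that activates surfactant genes, was measured in all 5 epithelial classes. In AT2 cells it stood at 140 CPM (interval 137 to 143) and 152 CPM (150 to 155). AT1 cells had the highest level, 312 CPM (280 to 345) and 291 CPM (267 to 317), and ciliated cells had 171 and 138 CPM. Club cells had 55.9 and 59.9 CPM and basal cells 97.1 and 79.2 CPM, and these 2 did not differ beyond their intervals in either library. AT1 cells were 2.22-fold and 1.91-fold above AT2 cells, which did not reach the 2-fold size asked of both libraries. Of AT2 cells, 69.0% and 64.5% had an Nkx2-1 UMI at median depths of 8976 and 6939 UMIs, against 3.55% and 6.25% of barcodes with endothelial markers. With every cell thinned to 2000 UMIs these shares were 25.2% and 26.9% in AT2 cells and 0.968% and 6.25% in the endothelial-marker barcodes.

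Cebpa (chr7:35119293-35121928), the leucine-zipper factor of AT2 maturation and lipid synthesis, was at its highest in AT2 cells, 229 CPM (225 to 233) and 250 CPM (247 to 254). Basal cells followed with 168 CPM (110 to 247) and 119 CPM (78.3 to 173), and for the tumor-bearing mouse they did not differ from AT2 cells beyond the interval. Club cells had 60.5 and 91.0 CPM, ciliated cells 46.1 and 45.6 CPM, and AT1 cells 10.2 and 30.8 CPM. The AT2 level was 22.5-fold (12.9 to 43.6) and 8.13-fold (6.29 to 10.7) that of AT1 cells, and 4.97-fold and 5.49-fold that of ciliated cells. Cebpa was seen in 81.3% and 76.5% of AT2 cells, and in 2.90% and 0% of endothelial-marker barcodes, where 0 of 32 allows a share with a UMI of up to 9.38% (3 counts of the total, with the exact interval reaching 10.9%).

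Etv5 (chr16:22381309-22439719), the ETS factor, was high in a single class. AT2 cells held 235 CPM (231 to 239) and 281 CPM (277 to 284), and no other class exceeded 35.0 CPM in either library. Club cells had 19.7 and 29.96 CPM, ciliated cells 10.1 and 24.4 CPM, AT1 cells 18.7 and 35.0 CPM and basal cells 19.4 and 22.0 CPM (3 and 5 UMIs). Neighbours in the order of those 4 classes did not differ beyond their intervals in either library. AT2 cells stood above club cells by 11.9-fold (9.99 to 14.3) and 9.37-fold (6.39 to 14.3), above ciliated cells by 23.3-fold and 11.5-fold, above AT1 cells by 12.6-fold and 8.01-fold, and above basal cells by 12.1-fold and 12.8-fold. Of the 10 factors, Etv5 alone passed the 2-fold size rule against all 4 other classes in the same direction. Empty droplets, barcodes with 1 to 100 UMIs, held Etv5 at 178 and 252 CPM and Cebpa at 168 and 211 CPM, and Etv5 in endothelial-marker barcodes was 14.4 and 23.2 CPM, near its level in the non-AT2 classes. Cebpa and Etv5 were seen together in 68.7% and 64.0% of AT2 cells, in 17.3% and 15.6% of club cells and in 1.78% and 3.99% of AT1 cells. Shares of cells with 2 factors, here and below, are from cells that were not thinned. Median depths were 8976 and 6939 UMIs in AT2, 23072 and 12331.5 in club and 6395 and 5719 in AT1 cells.

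**Figure D1:**
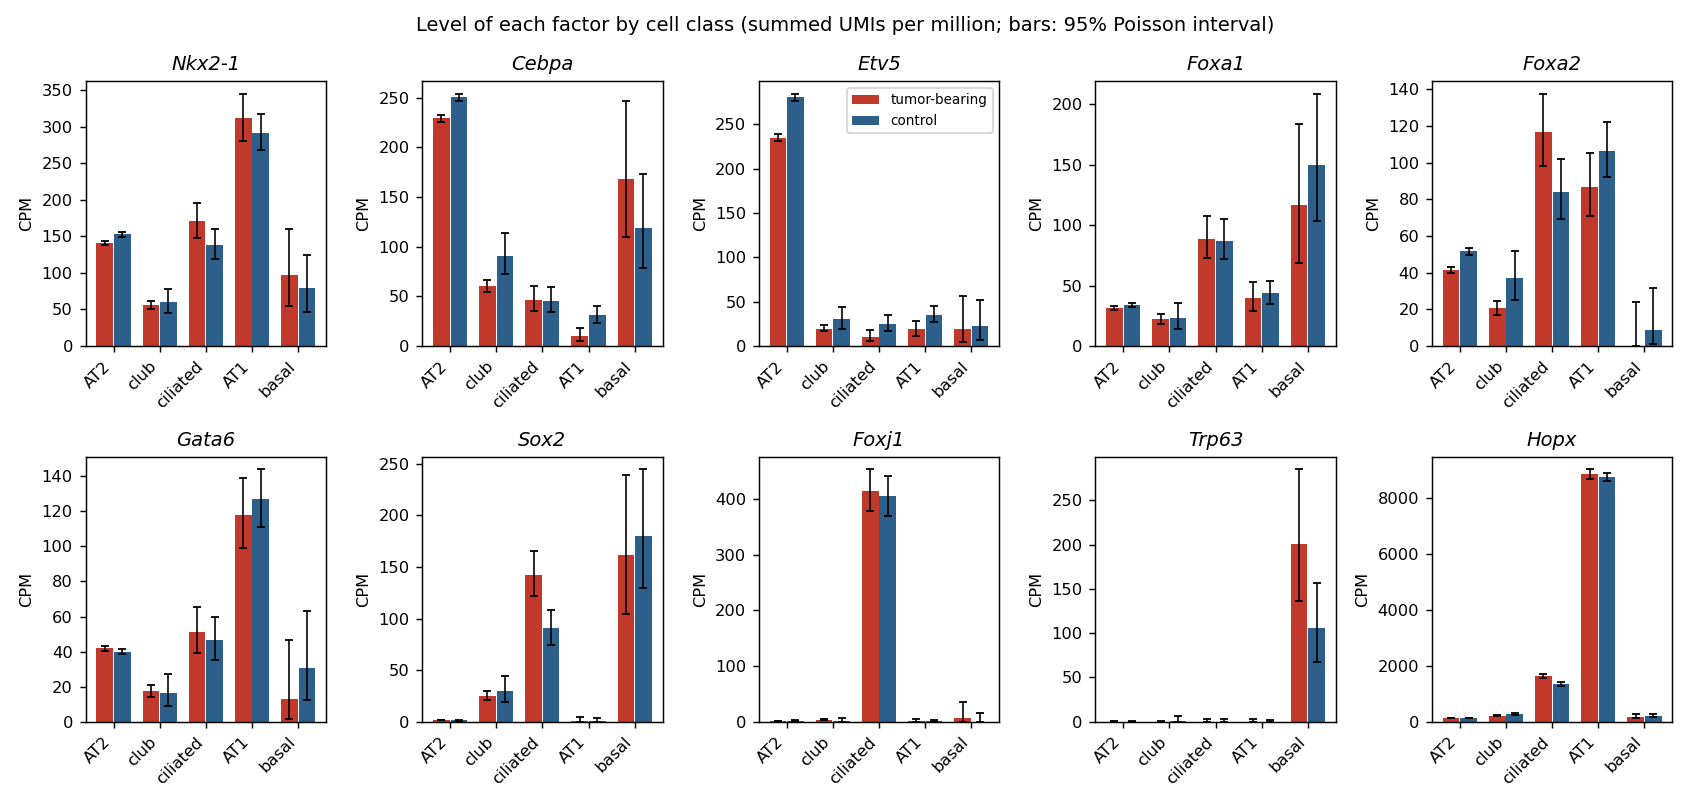
Level of each of the 10 factors in CPM (y axis, from 0, with its own scale per panel) by cell class (x axis) in the tumor-bearing (red) and control (blue) library. Bars are CPM of summed UMIs and lines are 95% Poisson intervals. Etv5 stands at 235 and 281 CPM in AT2 cells and at 35.0 CPM or less in every other class, while Hopx reaches 8852 and 8746 CPM in AT1 cells.

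Foxa1 and Foxa2, pioneer factors of endoderm that open chromatin for other regulators, had different orders. Foxa1 (chr12:57540628-57546916) was highest in basal cells, 117 CPM (69.1 to 184) and 150 CPM (104 to 209), followed by ciliated cells with 88.8 and 87.3 CPM. Its level was 39.9 and 43.5 CPM in AT1, 31.3 and 33.9 CPM in AT2 and 22.1 and 23.0 CPM in club cells. Against AT2 cells, Foxa1 was 3.72-fold (2.20 to 5.90) and 4.42-fold (3.05 to 6.19) higher in basal cells, and 2.84-fold and 2.58-fold higher in ciliated cells. Foxa2 (chr2:148042877-148046969) was highest in ciliated and AT1 cells, with 117 and 84.2 CPM in the former and 86.6 and 106 CPM in the latter. AT2 cells had 41.3 and 51.5 CPM of Foxa2, and club cells 20.5 and 36.9 CPM.

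In basal cells Foxa2 had 0 of 154457 UMIs with the tumor and 2 of 227375 without, the latter 8.80 CPM. With the 0 set to 3 counts in the class, AT2 cells were 2.13-fold higher in the former, where the exact interval of the 0 reached 23.9 CPM. They were 5.86-fold (1.62 to 48.4) higher in the latter. The same basal cells held 18 and 34 UMIs of Foxa1, seen in 63.6% and 59.5% of them. Both paralogs were seen together in 8.38% and 7.08% of AT2 cells and in 17.6% and 11.2% of ciliated cells. Foxa1 and Foxa2 were absent or at 1 UMI in the endothelial-marker barcodes of both libraries.

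Gata6, a zinc-finger factor of endoderm and of alveolar differentiation on chromosome 18, was highest in AT1 cells, 118 CPM (99.2 to 139) and 127 CPM (111 to 144). Ciliated cells had 51.1 and 46.4 CPM and AT2 cells 41.8 and 40.0 CPM, and these 2 classes did not differ beyond their intervals. Club cells had 17.5 and 16.1 CPM, and basal cells 12.9 and 30.8 CPM from 2 and 7 UMIs. AT1 cells were 2.83-fold (2.36 to 3.35) and 3.17-fold (2.77 to 3.62) above AT2 cells. Endothelial-marker barcodes held Gata6 at 26.9 and 92.7 CPM from 28 and 8 UMIs, so they do not serve as a class without it.

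Sox2 (chr3:34650405-34652461), the SOX factor of proximal airway, was nearly limited to the airway classes. Basal cells had 162 CPM (105 to 239) and 180 CPM (129 to 245), ciliated cells 142 CPM (122 to 166) and 90.5 CPM (74.7 to 109), and club cells 25.3 and 29.96 CPM. AT2 cells had 1.61 and 1.21 CPM, and AT1 cells had 1 and 2 UMIs in all. Relative to AT2 cells, the Sox2 level was 101-fold and 149-fold in basal, 88.8-fold and 74.5-fold in ciliated and 15.7-fold and 24.7-fold in club cells. Of basal cells 63.6% and 71.4% had a Sox2 UMI, of ciliated cells 52.5% and 31.7%, and of AT2 cells 1.17% and 0.789%. The endothelial-marker barcodes had none, at their shallower depth. A floor of 3 counts is 0.968% of 310 and 9.38% of 32 barcodes, with the exact intervals reaching 1.18% and 10.9%. Sox2 lies inside the transcript Sox2ot on the same strand, so its counts are uncertain to that extent.

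Foxj1 (chr11:116330704-116335399), the forkhead factor of motile cilia, was at 415 CPM (379 to 453) and 404 CPM (370 to 441) in ciliated cells. In the other 4 classes it reached at most 6.47 CPM, which was 1 UMI in the basal cells of the tumor-bearing library. Ciliated cells were 244-fold (198 to 304) and 212-fold (176 to 258) above AT2 cells. A Foxj1 UMI was seen in 81.4% and 78.1% of ciliated cells, and in 0.323% and 0% of endothelial-marker barcodes. Sox2 and Foxj1 were seen together in 43.0% and 26.3% of ciliated cells.

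Trp63 (chr16:25683763-25892102) was found in basal cells, at 201 CPM (136 to 285) and 106 CPM (67.6 to 157) from 31 and 24 UMIs. AT2 cells had 10 and 9 UMIs among 62927959 and 72504204, 0.159 and 0.124 CPM. Club cells had 1 UMI in each library, and ciliated and AT1 cells had 0. A floor of 3 counts there is 2.51 and 2.36 CPM in ciliated and 2.55 and 1.59 CPM in AT1 cells. The exact intervals reach 3.09 and 2.90 CPM in ciliated and 3.13 and 1.96 CPM in AT1 cells. Basal cells were 1263-fold (603 to 2888) and 850-fold (382 to 2079) above AT2 cells. Of basal cells 45.5% and 38.1% had a Trp63 UMI, and 31.8% and 23.8% had both Trp63 and Sox2.

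Hopx (chr5:77086988-77115121) was at 8852 CPM (8683 to 9023) and 8746 CPM (8613 to 8880) in AT1 cells, and all 169 and all 301 AT1 cells had a UMI of it. Ciliated cells came next with 1617 and 1352 CPM and 97.7% and 97.8% of cells. Club cells had 221 and 290 CPM, basal cells 181 and 220 CPM and AT2 cells 145 and 136 CPM. AT1 cells were 61.2-fold (59.5 to 63.0) and 64.1-fold (62.6 to 65.8) above AT2 cells, and ciliated cells 11.2-fold and 9.92-fold. Barcodes with endothelial markers also carried Hopx, at 1702 and 2386 CPM in 84.8% and 90.6% of them, while their AT1 panel summed to 703 and 822 CPM. The AT2 level of Hopx lay below that of empty droplets, 380 and 365 CPM. So did the AT2 levels of Sox2, Foxj1, Trp63 and Foxa1 (Foxa1 at 0.964 and 0.982 times). In the control this also held for Nkx2-1 (0.821 times) and Foxa2 (0.949 times).

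**Figure D2:**
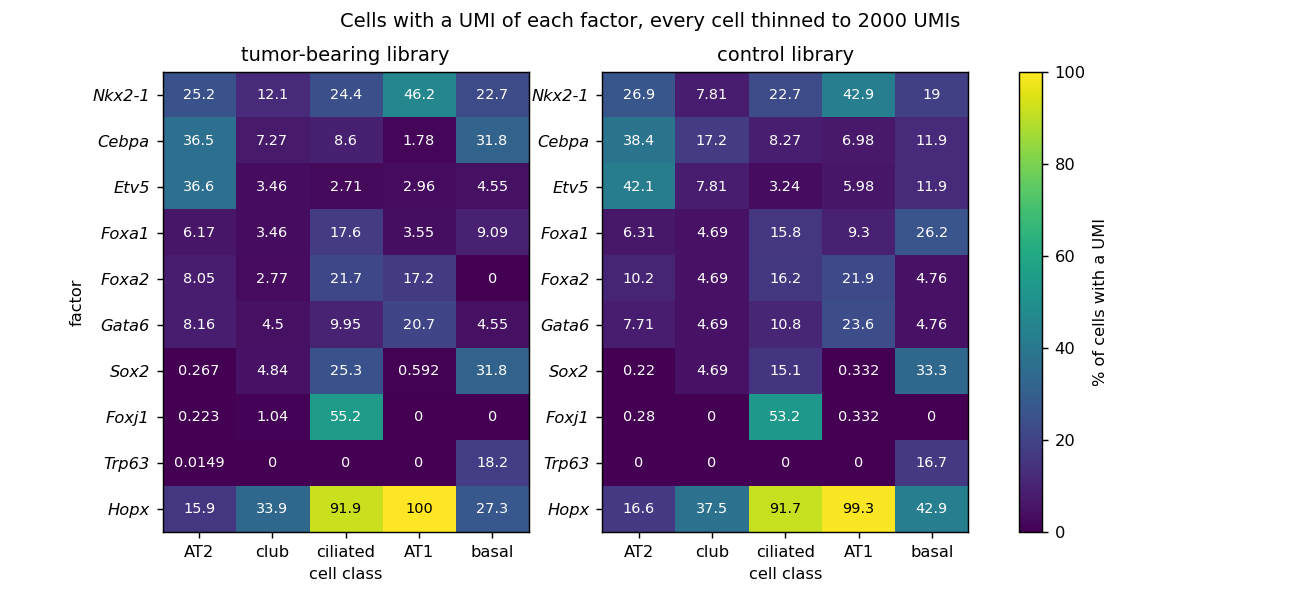
Share of cells with at least 1 UMI of each factor (rows) in each class (columns), in percent, after every cell was thinned to 2000 UMIs, for the tumor-bearing (left) and control (right) library. The colour runs from 0% to 100% and each cell of the grid prints its share. Foxj1 is seen in 55.2% and 53.2% of thinned ciliated cells, Trp63 in 18.2% and 16.7% of basal cells and Hopx in 100% and 99.3% of AT1 cells.

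Of the 40 pairs of a factor with a class other than AT2, 21 passed the 2-fold rule in both libraries. Not all 40 had enough counts: 8 factors did against club, 9 against ciliated, 7 against AT1 and 9 against basal cells. Over all genes with enough counts, the share past that rule either way was 36.2% against club, 45.5% against ciliated, 43% against AT1 and 17.9% against basal cells. Against club cells, Nkx2-1 (2.51-fold and 2.54-fold), Cebpa (3.79-fold and 2.75-fold), Etv5 and Gata6 (2.39-fold and 2.48-fold) were higher in AT2 cells and Sox2 was lower, out of 8 factors with enough counts. Across all genes 33.7% were higher and 2.5% lower in AT2 than in club cells, beside 4 and 1 of the 8 factors. Scgb1a1 alone took 59.2% and 56.5% of club cell UMIs. Against ciliated cells, 2 of 9 factors were higher in AT2 cells and 4 lower (background 6.91% and 38.6%). Against AT1 cells, 2 of 7 were higher and 3 lower (5.93% and 37.1%), and against basal cells 2 of 9 were higher and 3 lower (3.87% and 14.1%). Sox2 against club, ciliated and basal cells, Foxj1 against ciliated cells and Trp63 against basal cells had under 10 CPM in AT2 cells. They entered through the other class alone, and Foxa2 against basal cells entered through AT2 cells alone. The direction of these pairs was set by how they entered, so the counts that hold them are not read as a result.

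The scale mattered for the smaller folds. Narrower totals left out Sftpc, the other surfactant genes, the class-defining genes, and the 9 AT2 and 6 club markers that defined no class. Together these genes made up 37.98% and 37.5% of UMIs in AT2 cells, 66.5% and 64.4% in club cells and from 5.86% to 8.25% in the other epithelial classes. With those genes left out of the totals, 18 pairs passed, of which 15 were among the 21. On that scale the AT2 over club difference of Nkx2-1 was 0.44 and 0.53 (log2), of Gata6 0.37 and 0.50 and of Cebpa 1.03 and 0.65, each no longer past the rule. Foxa1 against ciliated cells (-0.93 and -0.81), Foxa2 against AT1 cells (-0.49 and -0.49) and Gata6 against AT1 cells (-0.92 and -1.11) were lost as well. Nkx2-1 and Cebpa in AT2 over basal cells and Hopx in club over AT2 cells were gained. Foxa1 changed direction on that scale, from 0.50 and 0.56 to -0.39 and -0.26 (log2, AT2 over club), and passed the rule on neither. Smaller differences that changed direction on that scale, all short of the rule on both, were Gata6 and (in the tumor-bearing library) Nkx2-1 against ciliated cells, Foxa1 against AT1 cells, Foxa2 and Foxj1 against club cells in the control library, and Hopx against basal cells in the tumor-bearing library.

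Between the 2 libraries, the AT2 levels of the factors were close. Sox2, Foxj1 and Trp63 were under 10 CPM in AT2 cells and were not compared. Of the other 7 factors, 0 reached 1.5-fold, against 2.46% of 6210 genes (153 genes), with 1.55% higher and 0.918% lower in the tumor-bearing library. Foxa2 was 0.801 times (0.762 to 0.843) and Etv5 0.837 times (0.819 to 0.855) its control level, with 41.3 against 51.5 CPM and 235 against 281 CPM. Cebpa was at 0.915, Nkx2-1 at 0.921 and Foxa1 at 0.924 times, and Gata6 at 1.04 and Hopx at 1.06 times. The direction of Hopx turned with the AT2 minimum at 10% Sftpc (log2 -0.09) or 20% (-0.02) and with a mean over cells (-0.01). The median over the 7 was -0.12 on the log2 scale, beside -0.05 over all genes compared. Intervals of 6 of the 7 left out 1, which shows counting precision and not a difference between groups of mice.

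In the small classes 7 comparisons of a factor between the libraries passed the 1.5-fold rule. Cebpa in club cells (60.5 against 91.0 CPM, 0.665 times, 0.521 to 0.859) and Foxa2 in club cells (20.5 against 36.9 CPM, 0.556 times, 0.375 to 0.846) were lower in the tumor-bearing library, where 8.22% of all genes compared passed (2.02% higher and 6.2% lower). The median depth of club cells was 23072 and 12331.5 UMIs. The Cebpa call was lost with barcodes of both libraries left out (log2 -0.53), with a mean over cells (-0.42), with the narrower totals (-0.50) and with club cells taken from 10% Scgb1a1 (-0.56).

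Among ciliated cells, Sox2 was higher in the tumor-bearing library, 142 against 90.5 CPM (1.57-fold, 1.24 to 2.01), and Etv5 was lower, 10.1 against 24.4 CPM from 12 and 31 UMIs (0.412 times, 0.193 to 0.826), where 7.54% of genes passed (4.44% higher and 3.1% lower). Foxj1 in the same cells was 1.03-fold (0.905 to 1.16). The Sox2 call was lost with the ciliated panel threshold doubled (log2 0.58) and with free RNA subtracted by Scgb1a1 (0.21), and kept with the subtraction by Sftpc (152 against 98.8 CPM).

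In AT1 cells, Cebpa (10.2 against 30.8 CPM, 12 and 58 UMIs, 0.331 times, 0.162 to 0.623) and Etv5 (18.7 against 35.0 CPM, 22 and 66 UMIs, 0.533 times, 0.313 to 0.875) were lower in the tumor-bearing library, where 12.7% of genes passed (8.8% higher and 3.86% lower). Hopx, Nkx2-1 and Gata6 in AT1 cells were at 1.01, 1.07 and 0.930 times. Surfactant genes moved the same way in these classes: 10 of 14 in AT1 cells (median -0.74, log2) and 11 of 14 in ciliated cells (median -0.77) were lower in the tumor-bearing library. Sftpc took 1.38% and 2.43% of AT1 UMIs and 1.18% and 2.04% of ciliated UMIs. With the empty droplet profile subtracted in proportion to Sftpc, an alternative chosen after the data were seen, Cebpa in AT1 cells stood at 0 and 9.73 CPM, Etv5 in AT1 cells at 6.08 and 9.70 CPM and Etv5 in ciliated cells at 0 and 2.55 CPM, and these 3 calls were lost, since all of those values lay under the 10 CPM asked for. With the planned subtraction by Scgb1a1 both AT1 calls were kept, Cebpa at 0 and 15.2 CPM and Etv5 at 7.98 and 16.3 CPM, and Etv5 in ciliated cells was lost. All 6 endothelial markers had UMIs in AT1 cells and summed to 1161 and 250 CPM, and their part in these differences was not tested.

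Trp63 in basal cells was higher in the tumor-bearing library, 201 against 106 CPM (1.90-fold, 1.08 to 3.39), from 22 and 42 cells, where 4.68% of genes passed (3.21% higher and 1.47% lower). As a mean over cells the log2 difference was 0.55 in place of 0.93, short of the rule, and with free RNA subtracted by Scgb1a1 it was -0.67 (218 against 346 CPM). That subtraction set 69.6% of control basal UMIs as free RNA, and the control Trp63 level rose with it from 106 to 346 CPM. Empty droplets held Trp63 at 0.560 and 0.431 CPM. With the subtraction by Sftpc, which set 6.87% of control basal UMIs as free RNA, the call was kept, at 215 against 113 CPM.

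**Figure D3:**
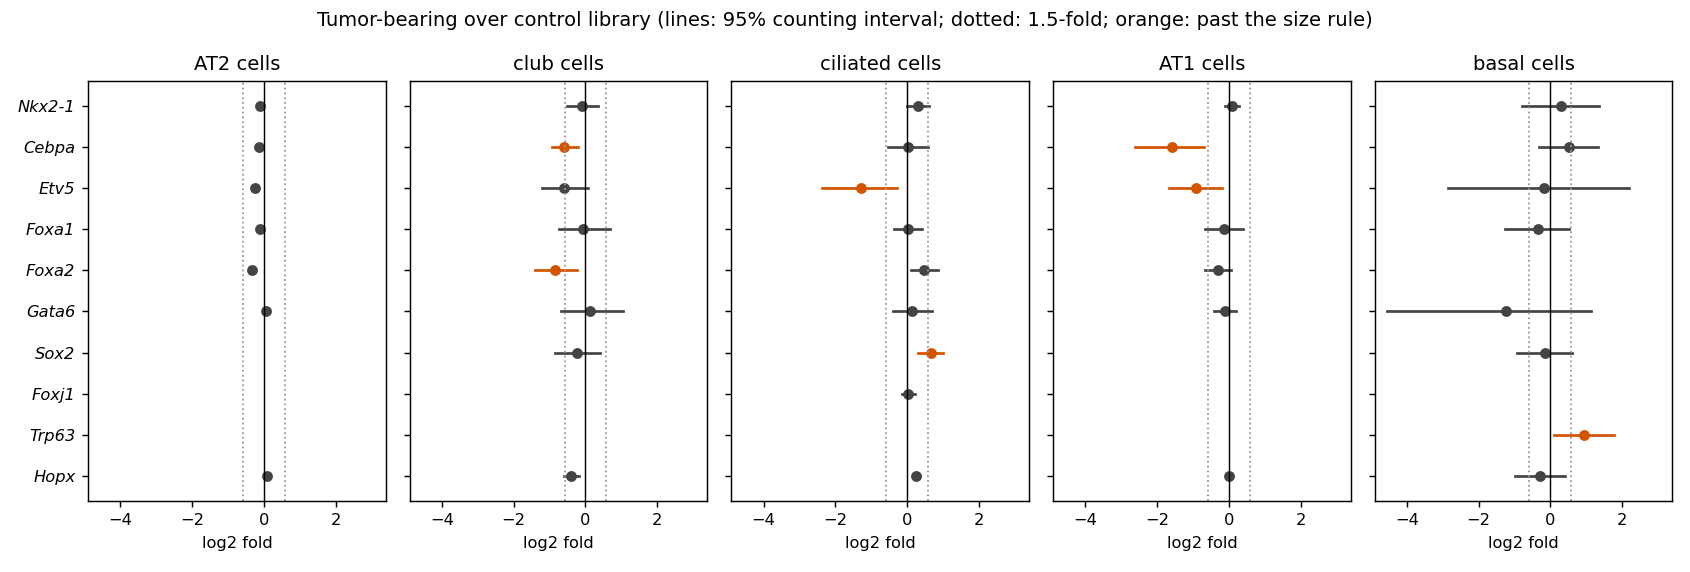
Log2 fold of each factor, tumor-bearing over control library (x axis), in each of the 5 classes (panels). Points are folds of CPM, lines are 95% counting intervals, dotted lines mark 1.5-fold either way and orange marks the 7 comparisons past the size rule. Factors without a point had under 10 CPM in both libraries or 0 UMIs in one. All 7 points of the AT2 panel lie between the dotted lines, from 0.801 to 1.06 times.

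Within AT2 cells the factors differed in how they moved with the Sftpc share. To keep Sftpc itself out of the scale, levels here are CPM over the narrower totals, without class-defining, surfactant and other AT2 and club marker genes. Hopx was 916, 259, 136 and 95.9 in cells with 15 to 20%, 20 to 25%, 25 to 30% and 30% or more Sftpc with the tumor, and 711, 238, 145 and 109 without. Gata6 went the same way on a smaller scale, 74.0, 73.9, 64.5 and 59.2, and 72.4, 67.9, 61.7 and 57.3. On this scale Cebpa was lowest in the first bin, 281 against 365, 386 and 377, and 340 against 400, 413 and 400. Etv5 was likewise lowest there, 294 against 371, 396 and 389, and 414 against 442, 456 and 461. That order depended on the scale. In CPM over all genes Cebpa was 203, 240, 234 and 210 in the tumor-bearing mouse and 245, 264, 252 and 225 in the control, lowest in the last bin of the latter. Etv5 in CPM was 211, 244, 239 and 217, and 299, 292, 278 and 259, highest in the first bin of the control. Nkx2-1 ranged from 217 to 238 and from 232 to 264 across the bins on the narrower totals, with the higher values in the last bin, and in CPM it went the other way, from 157 to 132 and from 168 to 148.

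The airway factors were unevenly spread over the bins. Of 107 and 138 Foxj1 UMIs in AT2 cells, 65 and 57 lay in the 435 and 741 cells of the lowest bin (15 to 20% Sftpc), and of 101 and 88 Sox2 UMIs, 30 and 18 did. Cells just under the AT2 minimum (14 to 15% Sftpc, 35 and 43 cells) had 704 and 1040 CPM of Hopx, and those just over it (15 to 16%, 55 and 70 cells) had 1193 and 1206 CPM. AT2 cells in which the AT1 panel took at least 1% of UMIs, 42 and 55 in number, held Hopx at 3344 CPM (3202 to 3492) and 3275 CPM (3130 to 3426), Cebpa at 141 and 173 CPM and Gata6 at 66.3 and 83.9 CPM. The remaining AT2 cells held Hopx at 113 and 111 CPM, Cebpa at 230 and 251 CPM and Gata6 at 41.5 and 39.6 CPM. Median depth was 12824 and 10290 UMIs in the former and 8961 and 6937 in the latter, and whether the former are droplets with more than 1 cell was not tested.

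**Figure D4:**
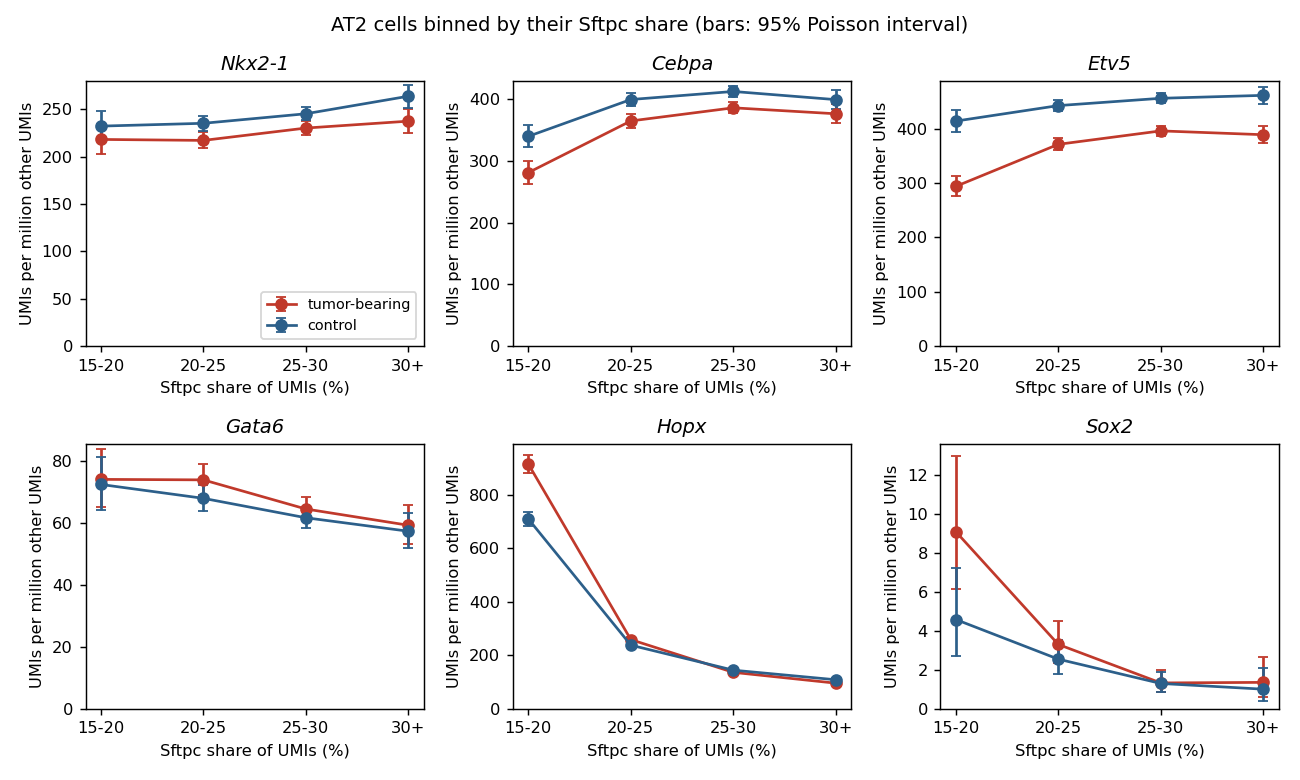
Level of 6 factors (y axis, CPM over totals without class-defining, surfactant and other AT2 and club marker genes, from 0) in AT2 cells by the Sftpc share of their UMIs (x axis, 4 bins), tumor-bearing in red and control in blue, with 95% Poisson intervals. Hopx goes from 916 and 711 in the lowest bin to 95.9 and 109 in the highest, while Nkx2-1 stays between 217 and 264.

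Gene lists of each factor's setting placed these levels. One list held 15 surfactant and lamellar body genes, known as targets of Nkx2-1 or Cebpa. Of these 15, 13 were higher in AT2 than in AT1 cells (5.93% over all genes) and 1 was lower (37.1% over all genes). The classes were parted by their Sftpc share, and the list shares genes such as Sftpb with the AT2 markers above. These counts are therefore not read as a result about targets. Sftpb, a surfactant protein, was at 15648 against 925 CPM and 15340 against 1414 CPM. Between the libraries in AT2 cells 1 of the 15 passed (2.46% over all genes), Scd1, a fatty acid desaturase, at 389 against 586 CPM (0.663 times), and Fasn, the fatty acid synthase, was at 0.818 times. The median of the list was 0.03 on the log2 scale. Multiciliation genes entered the comparison through the ciliated class alone, so their count is not read as a result. Tekt1, a tektin of cilia, was at 1.13 CPM in AT2 against 349 CPM in ciliated cells, and at 1.43 against 389 CPM.

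Of 14 Hippo and AT1 genes with enough counts, 13 were lower in AT2 than in AT1 cells (37.1% over all genes). Some, such as Ctgf, had under 10 CPM in AT2 cells and entered through the AT1 class alone. The count of 13 is therefore not read as a result. Cav1, the caveolin of AT1 membranes, was at 23.5 against 1248 CPM and 14.9 against 1100 CPM. Ctgf, a target of YAP, was at 6.64 against 550 CPM and 3.27 against 391 CPM. Between the libraries in AT2 cells, 1 of 11 of these genes passed, Cav1 at 1.57-fold (2.46% over all genes), and all 11 folds were above 1 with a median of 0.08 (log2), beside 2373 of 6210 folds above 1 and a median of -0.05 over all genes. All 6 endothelial markers had UMIs in AT2 cells and summed to 108 and 17.1 CPM, endothelial cells are known to carry Cav1, and their part in this was not tested. Most basal and squamous genes entered through the basal class alone, and their count is not read either. Itgb4, an integrin of hemidesmosomes, was at 1.06 CPM in AT2 against 97.1 CPM in basal cells, and at 0.703 against 132 CPM. Of 7 FGF receptor and feedback genes with enough counts, 0 passed between the libraries in AT2 cells (2.46% over all genes). Dusp6, a feedback phosphatase of ERK, was at 1.28-fold and Spred1 at 1.22-fold, beside Etv5 at 0.837 times. Fgfr2, the receptor for FGF ligands of the mesenchyme, was 3.66-fold and 3.01-fold higher in AT2 than in AT1 cells.

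Among 47 other lung transcription factors, 25 had enough counts in AT2 cells, of which 3 were higher in the tumor-bearing library (1.55% over all genes), beside 0 of 7 among the factors described here. Irx1, an Iroquois homeobox factor, was at 434 against 276 CPM (1.57-fold, 1.54 to 1.60), Id1, an inhibitor of DNA binding, at 23.3 against 12.99 CPM (1.80-fold) and Foxp2, a forkhead repressor, at 13.7 against 8.69 CPM (1.58-fold). Foxp2 had under 10 CPM in the control and entered through the tumor-bearing library alone, so the count of 3 is not read as a result. Between AT2 and AT1 cells 5 of 24 were higher and 5 lower, where 5.93% and 37.1% of all genes were, with the ETS factor Elf5 at 59.5 against 1.70 CPM and 53.1 against 5.84 CPM, and Id3 at 25.2 against 407 CPM and 21.2 against 426 CPM. Elf5 had under 10 CPM in AT1 cells and entered through AT2 cells alone, so the count of those higher is not read either.

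Genes with the most similar pattern were taken by Pearson correlation of log2(CPM + 1) over the 10 profiles (5 classes in 2 libraries) among 8299 genes. These correlations describe 10 profiles that share libraries and cell types. Etv5 was nearest to H2-Ab1, a class II histocompatibility chain, Mlc1 and Slc34a2, the phosphate transporter of AT2 cells (r of 0.98 for each). Foxj1 was nearest to Dnali1, a dynein light intermediate chain (1.00), and Tekt1 (0.99), and Sox2 to Gstm1, a glutathione transferase, and Tbx1, a T-box factor (0.99 each). Cebpa was nearest to Socs2 (0.96), a cytokine signalling suppressor, Nkx2-1 to Bet1l (0.99), Gata6 to Osbpl2 (0.99), Foxa2 to Prr15l (0.99), and Foxa1 to Llph and the ligand Wnt4 (0.98 each). Prr15l had 6.47 and 35.2 CPM in basal cells and 203 and 202 CPM in AT2 cells. Hopx was nearest to Mettl7a1 (0.98), and Trp63 to 4631405K08Rik (1.00).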

How the data were processed

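Single-cell RNA of 2 sorted lung libraries, 1 per group, was used as deposited. The authors deposited UMI counts, not normalized, for every gene in 737280 listed barcodes per library, made with Cell Ranger 2.1.0 per the series design, on mm10 per the submitters' processing notes, which also name R 3.5.3 and Seurat without a role. Cells were rebuilt here as barcodes with at least 2000 UMIs, which held 89.4% and 86.5% of all UMIs. The 10 factors, the gene lists and the class rules were chosen with earlier results of these data known. AT1, ciliated and basal cells had under 10% Sftpc and at least 1%, 1% and 0.2% of UMIs from panels of 10, 12 and 7 markers, thresholds set after the distribution was seen, and endothelial-marker barcodes had at least 1%. Barcodes that met 2 classes (1 and 3) were left out. Scrublet (scanpy 1.11.5) marked 0 barcodes by its automatic threshold, so doublets were removed only in an alternative (537 and 969 of the highest scores).

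UMIs were summed per class and library. Intervals are exact at 95%: Poisson for CPM, Clopper-Pearson for shares, conditional binomial for folds. A factor was called between libraries at 1.5-fold or more with an interval without 1 and at least 10 CPM in either library, and between classes at 2-fold or more the same way in both libraries, with at least 10 CPM in the higher class. A count of 0 was given a floor of 3 counts. All 10 factors are named, with the 3 genes most like each by correlation (some left out of the text) and up to 4 genes per list with the largest folds, of which 1 is not reported here. The calculation was tested on simulated counts. Coordinates are from GENCODE vM21, which held 28339 of the 28692 identifiers, and promoters from RefSeq. Nkx2-1, Cebpa and Hopx have antisense neighbours in that annotation, and how reads there were assigned was not given in the sources used here. Alternatives covered the UMI minimum, the class thresholds, totals, free RNA, doublets and the size rules. Python 3.11.15, numpy 2.4.6, scipy 1.17.1 and pandas 2.3.3 were used.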

Additional observations from a re-analysis of the deposited data

How the results depend on the processing

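Of the 21 factor and class pairs that passed between AT2 and other cells, between 15 and 21 were shared with each alternative. The fewest were shared with totals that leave out class-defining, surfactant and other AT2 and club marker genes. In AT2 cells the count of factors differing between libraries was 0, and 1 with the empty droplet profile subtracted by Scgb1a1, Hopx at a log2 fold of 0.60 in place of 0.08. The same subtraction gained Nkx2-1 in ciliated cells, 175 against 113 CPM. That subtraction put free RNA at 5.53% and 17.9% of AT2 UMIs (tumor-bearing and control) and at 69.6% in control basal cells, where Trp63 went from 0.93 to -0.67. The cause was not tested. The count of all genes differing in AT2 cells was 153, against 1512 without a CPM minimum, 91 at 20 CPM, 69 at 2-fold and 573 at a fold size under the 1.5 used, since these rules test other genes or sizes. The 7 factor differences in the smaller classes became 2 at 2-fold and 4 with free RNA subtracted by Sftpc. Doubling the panel thresholds lost Etv5 and Sox2 in ciliated cells, and removing the highest Scrublet scores lost Etv5 in ciliated cells. The subtraction by Sftpc, AT2 cells limited to an AT1 panel under 1% and the removal of barcodes found in both libraries were chosen after seeing the data. No paired analysis was possible because each group had 1 library. Few cells limit the basal class, where 22 and 42 cells gave 154457 and 227375 UMIs, and the control endothelial-marker barcodes, 32 with 86346 UMIs.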
